A study of Mus musculus with 6 samples.

Results

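The genes described here are the nuclear genes for the tricarboxylic acid (TCA) cycle, for the entry of pyruvate into it and for the breakdown of branched-chain amino acids. They were taken by symbol from a table of 19241 genes, and 39 of 39 were found. The table comes from RNA sequenced in bulk from the entire interscapular brown adipose depot of newborn mice. The 3 WT libraries came from mice labelled Fstl1-floxed, so the controls carry the floxed gene too, and the 3 KO libraries from mice labelled Myf5-Fstl1 KO. Fstl1 encodes a secreted glycoprotein, and Myf5-expressing precursors form skeletal muscle as well as most brown adipocytes of this depot. The labels name no Cre allele, no sex, no exact age and no pooling of animals. The question is what loss of Fstl1 from that lineage does to gene expression of the depot.

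The TCA cycle oxidises acetyl-CoA in the mitochondrial matrix and feeds electrons to the respiratory chain, which brown fat uses to make heat through Ucp1. Pyruvate enters the matrix through a carrier of 2 subunits, Mpc1 and Mpc2, and is turned into acetyl-CoA by the pyruvate dehydrogenase complex, which kinases (Pdk) switch off and phosphatases (Pdp) switch on. Leucine, isoleucine and valine are transaminated by Bcat2 and then oxidised by a related complex, which Bckdk switches off and Ppm1k switches on. Brown fat is known as a strong consumer of branched-chain amino acids when it makes heat.

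Values are FPKM (fragments per kilobase of transcript, relative to all mapped fragments of the library), which are scaled to gene length, so that levels of different genes can be compared. Fold changes are KO minus WT on the log2(FPKM + 1) scale and were tested with limma over the 13331 genes whose mean reached 0.5 FPKM. A gene was called at a Benjamini-Hochberg adjusted p under 0.05. Reads were estimated at 13800000 to 15100000 per library. Fstl1 itself ranged from 54.4 to 130.04 FPKM over the WT libraries and from 7.93 to 13.1 FPKM over the KO libraries (limma adjusted p 0.00979, log2 fold change −2.79). Each KO library had Y-linked transcripts (Eif2s3y at 83.7 to 99.3 FPKM, against at most 0.08 FPKM in WT) and each WT library had Xist (44.8 to 85.5 FPKM, against at most 0.92 FPKM in KO), so genotype and sex cannot be told apart in anything that follows. In bulk RNA, fewer cells of a type and less RNA per cell cannot be told apart either. Of 12 brown adipocyte markers 2 were called, both lower in KO: Elovl3, at 18.8 to 25.9 FPKM in WT and 1.69 to 5.65 FPKM in KO, and Plin1, at 174 to 309 and 76.6 to 106 FPKM (limma adjusted p 0.0151 and 0.0267). Of all tested genes 2.21% were called. The fold changes of the 12 markers lay below 0 in 7 and above 0 in 5. Among those 5, Ppargc1a was at 14.6 to 22.0 FPKM in WT and 21.0 to 35.9 FPKM in KO (limma adjusted p 0.251). Prdm16 was at 4.13 to 5.25 FPKM in WT and 1.68 to 3 FPKM in KO (limma adjusted p 0.0519), and the summed level of the 12, most of it Fabp4, ran from 22960 to 29990 FPKM in WT and from 23090 to 25040 FPKM in KO. Of 6 hepatocyte markers none exceeded 0.33 FPKM. The macrophage markers had higher means in KO in 10 of 10, 5 of them without overlap, and 0 were called (summed level 122.8 to 181 FPKM in WT, 171.3 to 235.6 FPKM in KO). The log2 fold changes lay below 0 for 11 of 11 tested muscle markers and above 0 for 7 of 7 fibroblast and matrix markers, with 0 of either without overlap. KO replicate 1 held 412.5 FPKM of summed muscle markers against 1558 to 2295 FPKM in the other 5 libraries, WT replicate 3 held 14390 FPKM of summed erythroid markers against 3071 to 5064 FPKM, and KO replicate 2 held 2462 FPKM of summed fibroblast and matrix markers against 1314 to 1786 FPKM. The part of these in the results was not tested.

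Of the 39 genes, 0 were called, where 2.21% of all tested genes were called (134 lower in KO, 1.01%, and 161 higher, 1.21%). At an unadjusted p under 0.05 there were 2 of the 39 (5.13%), Pdhx and Mdh1, both with lower values in KO, against 19.2% of all tested genes (8.6% lower, 10.6% higher). The WT and KO values did not overlap in 5 genes (12.8%), 4 lower in KO (Pdhx, Mdh1, Pdhb and Idh3a) and 1 higher (Aco1), against 24.9% of all tested genes (11.4% lower, 13.6% higher). The fold changes of the 39 ran from −0.49 (Pdhx) to 0.34 (Pdk4), with a median of −0.03, beside a median of 0.01 over all tested genes. Their median size, in either direction, was 0.11, against 0.198 over all tested genes and 0.189 over the 3019 tested genes whose mean reached 25 FPKM. All 39 lay within 0.5 of no change, as did 86.4% of all tested genes. Since a missed threshold does not show equal levels, the 95% intervals matter: 38 of 39 lay inside ±1, the exception being Pdk4, and 17 lay inside ±0.5. A difference of 1 on the log2 scale thus lay outside the interval of each of the 39 but Pdk4. Of all tested genes 87.5% had an interval inside ±1, as had 88.7% of those whose mean reached 25 FPKM. Inside ±0.5 lay 3979 of the 13331. By role, the fold changes were below 0 in 12 of 16 enzymes of the cycle (median −0.09), in 4 of 4 pyruvate dehydrogenase subunits (median −0.26), in both carrier subunits (median −0.25) and in 6 of 9 branched-chain genes (median −0.03), and above 0 in 4 of 4 Pdk kinases (median 0.21). Of these kinases and dehydrogenase subunits, Pdk1, Pdk3, Pdk4 and Pdha1 changed sign when 1 library was left out. The split of the 39, 25 below 0 and 14 above, became 20 and 19 with the libraries rescaled to a common sum and 26 and 13 with median-of-ratios scaling. Over all tested genes 6446 fold changes lay below 0 and 6885 above. Over the 3019 whose mean reached 25 FPKM the numbers were 1686 and 1333.

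**Figure D1:**
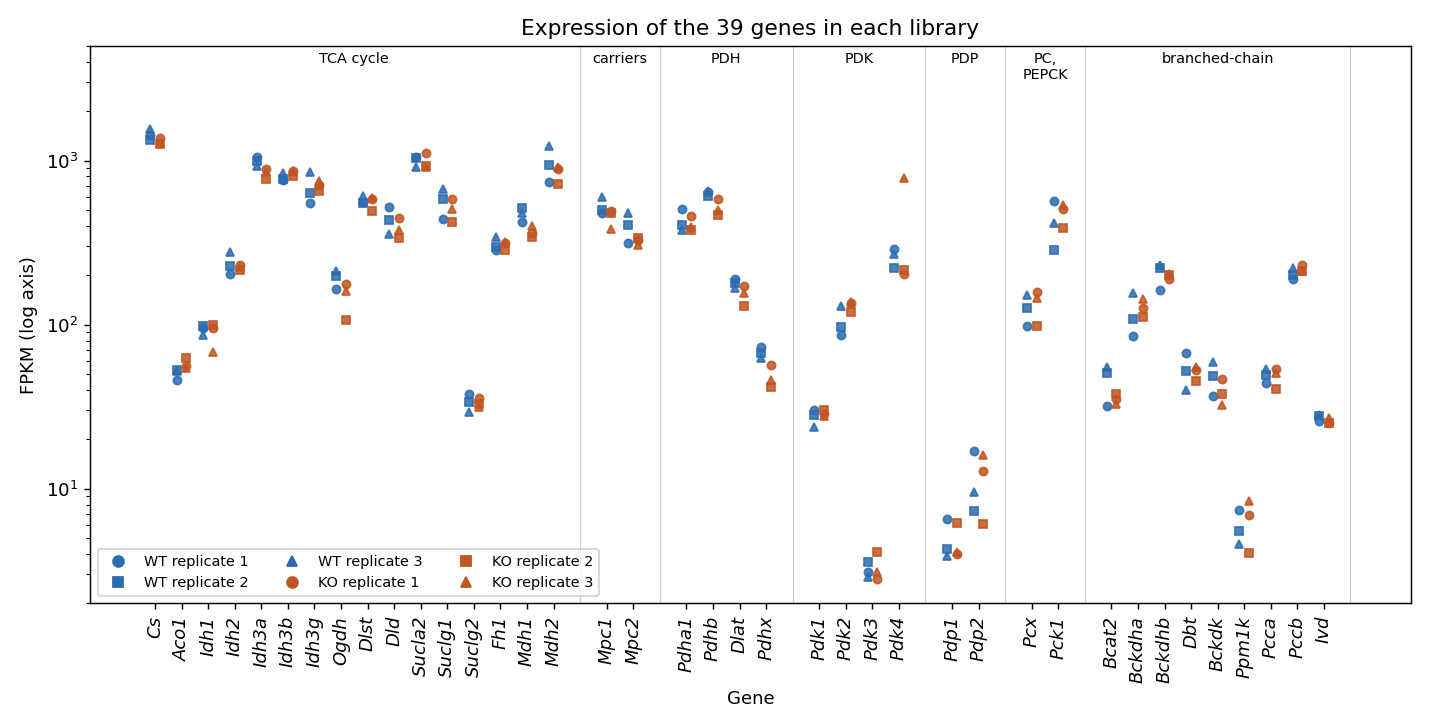
Expression of each of the 39 genes by library (FPKM, log axis), WT in blue and KO in orange, with circles, squares and triangles for replicates 1, 2 and 3. The mean level runs from 3.27 FPKM for Pdk3 to 1370.0 FPKM for Cs, and the colours are intermixed for most genes; the single KO triangle of Pdk4 at 785 FPKM stands apart.

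**Figure D2:**
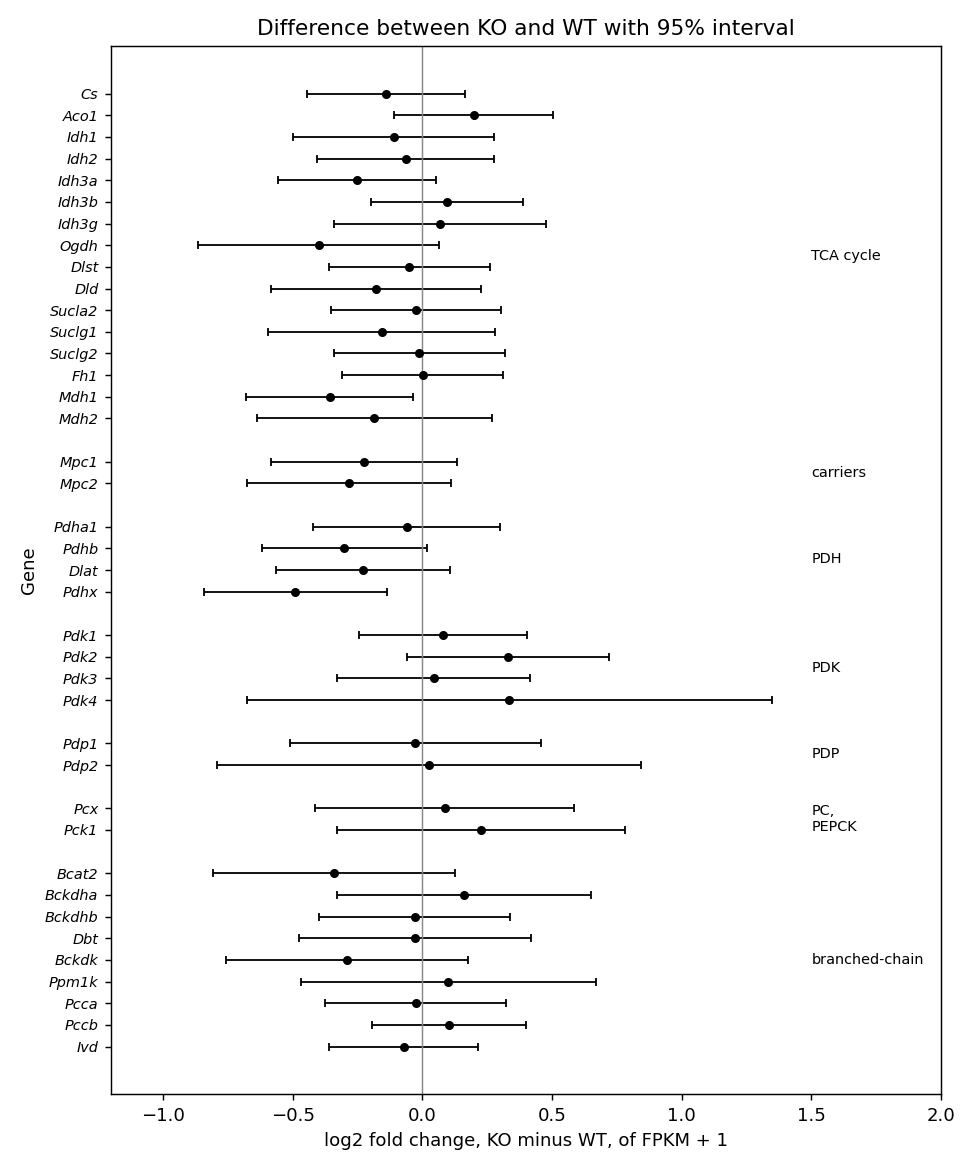
Log2 fold change (KO minus WT, FPKM + 1) of each of the 39 genes with its 95% interval from limma, grouped by role. The intervals of Pdhx and Mdh1 lie below 0, the other 37 include 0, and that of Pdk4 is the widest.

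**Figure D3:**
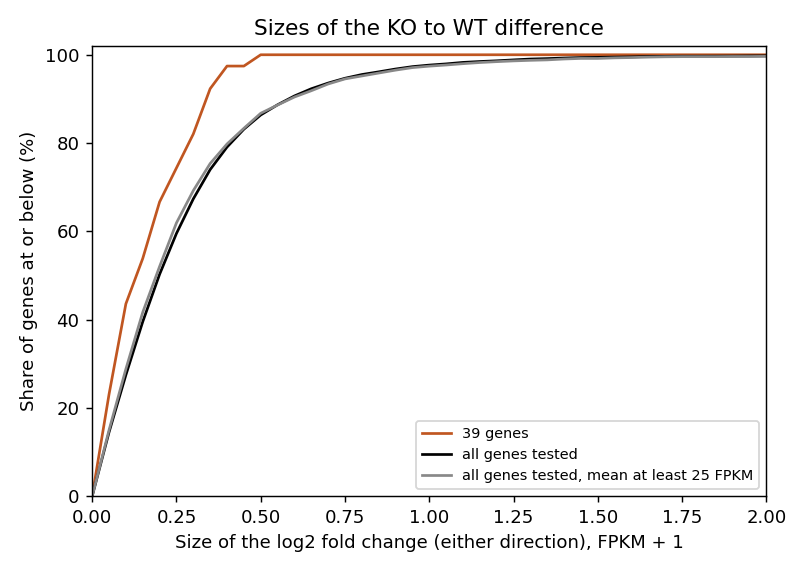
Cumulative share of genes (%) against the size of the log2 fold change in either direction, for the 39 genes, all 13331 tested genes and the 3019 tested genes whose mean reached 25 FPKM. The line of the 39 genes reaches 100% by 0.5, where the line of all tested genes is at 86.4%.

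The promoters of 4 of the genes are shown, none of them called and all picked by their values in these data: Pdhx and Mdh1 had the smallest p-values of the 39, and Pdk4 and Pck1, whose transcription hormones are known to govern, were high or low in single libraries. Each sequence is the 250 bases before the RefSeq start site, 5′ to 3′ on the strand of the gene, in GRCm38.p6, the assembly that mm10 denotes. Capitals mark CCAAT boxes (CCAAT, which reads ATTGG when it lies on the other strand) in Mdh1 and Pdk4 and a cAMP response element (TTACGTCA, searched on both strands) in Pck1. No match of either motif is in the Pdhx window.
Pdhx (chr2:103073514-103073763, minus strand): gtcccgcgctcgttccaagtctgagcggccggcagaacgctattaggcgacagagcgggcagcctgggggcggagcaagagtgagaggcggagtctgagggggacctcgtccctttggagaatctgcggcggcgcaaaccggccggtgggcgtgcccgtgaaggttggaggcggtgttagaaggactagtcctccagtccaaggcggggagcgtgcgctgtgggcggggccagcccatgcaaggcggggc
Mdh1 (chr11:21571935-21572184, minus strand): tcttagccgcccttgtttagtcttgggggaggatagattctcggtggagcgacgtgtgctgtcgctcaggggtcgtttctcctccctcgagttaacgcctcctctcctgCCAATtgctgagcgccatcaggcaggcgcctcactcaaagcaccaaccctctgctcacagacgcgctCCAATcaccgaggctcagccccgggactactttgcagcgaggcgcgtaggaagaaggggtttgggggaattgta
Pck1 (chr2:173152823-173153072, plus strand): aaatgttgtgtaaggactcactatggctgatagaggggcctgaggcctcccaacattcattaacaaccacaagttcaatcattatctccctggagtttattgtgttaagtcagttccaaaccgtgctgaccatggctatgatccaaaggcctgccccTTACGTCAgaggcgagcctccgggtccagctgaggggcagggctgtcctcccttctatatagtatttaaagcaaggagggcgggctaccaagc
Pdk4 (chr6:5496279-5496528, minus strand): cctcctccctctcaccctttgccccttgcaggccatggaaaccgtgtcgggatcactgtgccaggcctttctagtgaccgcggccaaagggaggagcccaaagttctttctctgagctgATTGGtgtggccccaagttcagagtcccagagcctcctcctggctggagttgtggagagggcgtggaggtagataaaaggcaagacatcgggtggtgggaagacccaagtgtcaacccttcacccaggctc

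RefSeq promoters were matched for 36 of the 39 genes, 49 in all since some genes have several start sites. A CCAAT box was present in 53.1% of these 49, from 22 genes, and in 33.8% of all 32851 promoters of the table. Genes with several start sites count more than once in such shares, so the windows are not independent. The palindromic cAMP response element TGACGTCA was in 4 of the 49, from 2 genes, Mdh2 and Ogdh (1.55% of all promoters), and the variant TTACGTCA in 1, that of Pck1 (0.447% of all promoters). Elements of this kind are known to be used by cAMP signalling, but use of these 3 matches was not tested here. The 3 are set side by side with 16 bases on each side and the element in capitals.
Pck1 (chr2:173152964-173153003, plus strand): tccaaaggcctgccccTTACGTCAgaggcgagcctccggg
Mdh2 (chr5:135778506-135778545, plus strand): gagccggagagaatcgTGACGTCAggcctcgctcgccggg
Ogdh (chr11:6291530-6291569, plus strand): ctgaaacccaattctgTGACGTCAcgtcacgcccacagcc
The element starts 93, 127 and 51 bases before the start site in Pck1, Mdh2 and Ogdh, the last counted from 1 of its several start sites. Pck1 was highest in WT replicate 1, and Mdh2 and Ogdh in WT replicate 3, which was the highest library for 16 of the 39 genes. Any part of the elements in these levels was not tested. A binding motif of estrogen-related receptors (AAGGTCA) and a FOXO element (GTAAACA) were in 0 of the 49 windows on either strand (4.08% and 3.17% of all promoters). An NRF1 element was in 2, those of Pccb and Sucla2 (3.74% of all promoters). An E-box (CACGTG) was in 6, from 4 genes, Ogdh, Pcx, Pdk2 and Pdp2 (6.02% of all promoters). A match describes letters in this window and is not a shown binding site.

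The pyruvate dehydrogenase complex held the gene with the lowest fold change of the 39. Its subunits are the E1 chains Pdha1 and Pdhb, the acetyltransferase Dlat, the protein Pdhx that ties the dehydrogenase Dld to the core, and Dld itself, which other complexes share. Pdhx (Entrez gene 27402) was at 72.9, 66.9 and 62.4 FPKM in the WT libraries 1 to 3, against 56.7, 41.6 and 45.9 FPKM in the KO libraries. Each KO value was below each WT value, with the KO mean at 71.3% of that in WT (log2 fold change −0.49, SE 0.16, 95% interval −0.84 to −0.14, limma unadjusted p 0.0119, adjusted p 0.138). Pdhb was at 642, 608 and 657 FPKM in WT, against 587, 467 and 500.4 FPKM in KO, again without overlap (log2 fold change −0.30, SE 0.14, limma adjusted p 0.287). Dlat lay at 166 to 189 FPKM in WT and at 129.7 to 171 FPKM in KO, and the groups overlapped (−0.23, limma adjusted p 0.438). Pdha1, which is X-linked and is expressed from 1 active copy in either sex, was nearly level, at 429 ± 67.2 FPKM in WT and 410 ± 42.7 FPKM in KO (SD, n = 3; log2 fold change −0.06). In every library Pdhx was the least abundant of these subunits. KO replicate 2 was the lowest library for each of these 5 genes.

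The 2 subunits of the pyruvate carrier had overlapping groups. Mpc1 was at 478, 502 and 598 FPKM in WT, against 491, 479.6 and 383 FPKM in KO (log2 fold change −0.22, 95% interval −0.58 to 0.14). Mpc2 was at 314, 403 and 481 FPKM in WT, against 328, 339 and 304 FPKM in KO (−0.28, 95% interval −0.67 to 0.11). In each of them WT replicate 3 was the highest library and KO replicate 3 the lowest.

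Pdk4, the kinase that fasting and fat oxidation are known to induce, was at 288, 222.5 and 268 FPKM in WT, against 204, 216 and 785 FPKM in KO replicates 1, 2 and 3. KO replicate 3 was the highest of the 6 libraries, and the other KO libraries were the lowest. The fold change of 0.34 (SE 0.45, 95% interval −0.68 to 1.35, limma adjusted p 0.731) therefore rested on 1 library: without KO replicate 3 it was −0.30 (limma adjusted p 0.464). Pdk2, the kinase found in most tissues, was at 87.0, 97.4 and 130.1 FPKM in WT, against 136, 119 and 137 FPKM in KO. WT replicate 3 lay among the KO values and the other WT libraries below them (log2 fold change 0.33, SE 0.17, limma adjusted p 0.334). Pdk1, a hypoxia-responsive kinase, lay at 27.3 ± 3.37 FPKM in WT and 28.8 ± 1.23 FPKM in KO (SD, n = 3), and the X-linked Pdk3 at 3.19 ± 0.346 and 3.35 ± 0.69 FPKM. Pdk4 made up 54.9% to 82.4% of the summed Pdk FPKM of a library, and Pdk2 made up 14.3% to 36.6%. The ratio of Pdk4 to the other 3 kinases was 2.40, 1.72 and 1.71 in WT and 1.22, 1.41 and 4.69 in KO (difference of the mean log2 ratio 0.06, exact two-sided permutation test p 1, adjusted p 1). Without KO replicate 3 the difference was −0.55, with both KO values below the 3 WT values (exact permutation test p 0.1, the smallest that 2 against 3 allows).

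The phosphatases that oppose these kinases were far less abundant. Pdp2 was at 16.96, 7.30 and 9.54 FPKM in WT, against 12.8, 6.08 and 15.98 FPKM in KO, so that both groups held high and low libraries. Pdp1 lay at 3.88 to 6.50 FPKM in WT and 4.02 to 6.15 FPKM in KO. The summed kinases exceeded the summed phosphatases 17.4 to 31.6-fold in WT and 22.1 to 47.4-fold in KO, per length of transcript (difference of the mean log2 ratio 0.31, exact two-sided permutation test p 0.6, adjusted p 1). That difference was 0.03 without WT replicate 1 and 0.02 without KO replicate 3.

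**Figure D4:**
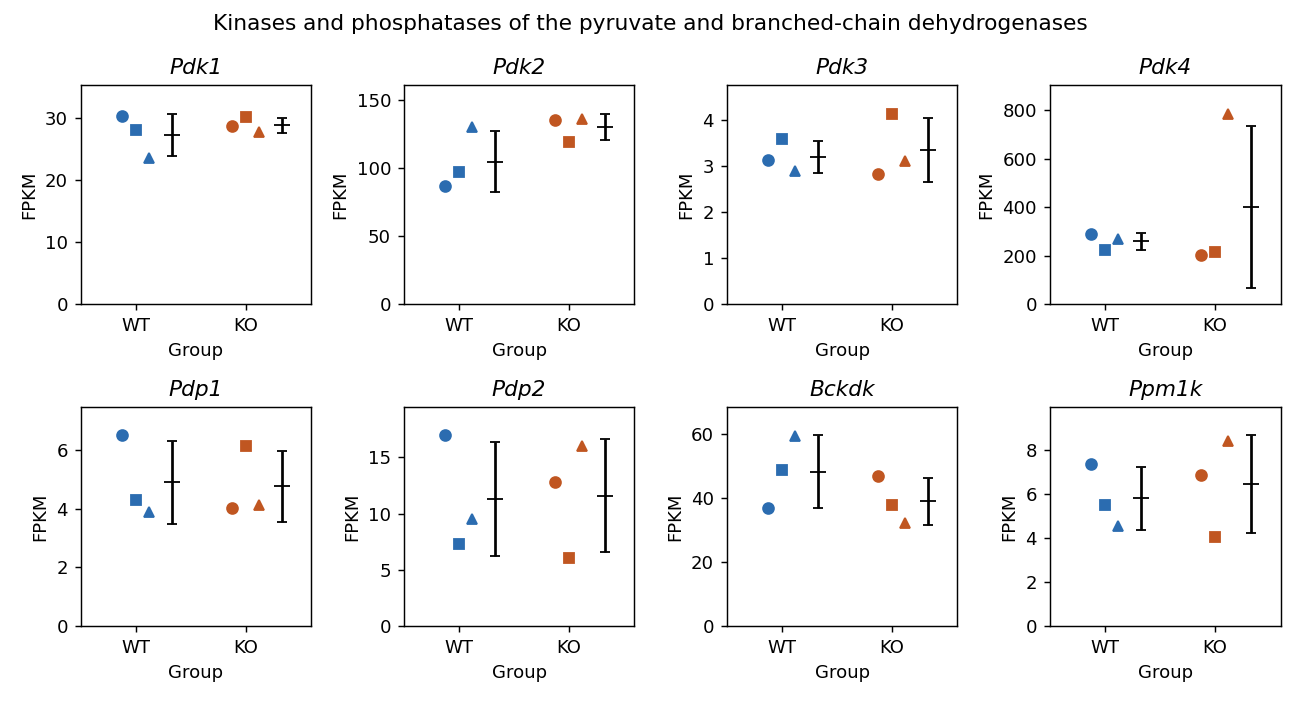
FPKM of the kinases and phosphatases of both dehydrogenase complexes by library, with circles, squares and triangles for replicates 1, 2 and 3 and with the mean and SD of each group (n = 3) in black beside the points. The groups overlap for each gene, for Pdk2 only through WT replicate 3, and Pdk4 in KO replicate 3, at 785 FPKM, is the one value far from the others of its gene.

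Citrate synthase joins acetyl-CoA to oxaloacetate. The enzyme is widely used as a marker of mitochondrial content, which the RNA values here do not measure. Its gene, Cs, was the most abundant of the 39. It was at 1435, 1334 and 1549 FPKM in WT, against 1374, 1260.2 and 1279.5 FPKM in KO (log2 fold change −0.14, SE 0.13, 95% interval −0.44 to 0.16, limma adjusted p 0.61), with KO at 90.7% of the WT mean. Its mean level was at percentile 99.8 of the tested genes. For comparison, Ucp1 was at 4366, 6124 and 6255 FPKM in WT, against 2902, 1695 and 3592 FPKM in KO (log2 fold change −1.08, limma adjusted p 0.0804). The difference between these 2 fold changes was not tested.

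Isocitrate dehydrogenase occurs as the NAD-dependent Idh3 of the cycle, made of 3 kinds of subunit, and as the NADP-dependent Idh2 of the matrix and Idh1 of the cytosol. Idh3a, the catalytic subunit, was at 1050.3, 999.6 and 928 FPKM in WT, against 884, 768 and 848 FPKM in KO, without overlap (log2 fold change −0.25, SE 0.13, 95% interval −0.56 to 0.05, limma adjusted p 0.346). Its partner subunits did not share that order: Idh3b lay at 763 to 843 FPKM in WT and 803 to 869 FPKM in KO (0.09; its exons overlap those of Nop56 on the other strand, which was at 37.3 ± 5.78 and 24.8 ± 2.35 FPKM, SD, n = 3), and the X-linked Idh3g at 552 to 858 and 652 to 756 FPKM (0.07). Idh2 lay at 236 ± 38.3 and 224 ± 6.93 FPKM (SD, n = 3), and Idh1 at 93.4 ± 5.66 and 87.5 ± 17.3 FPKM. The ratio of Idh1 to Idh2 ran from 0.313 to 0.471 in WT and from 0.301 to 0.461 in KO (difference of the mean log2 ratio −0.05, exact two-sided permutation test p 0.7, adjusted p 1).

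Mdh1 (Entrez gene 17449), the cytosolic malate dehydrogenase of the malate-aspartate shuttle, was at 419.9, 513 and 479.7 FPKM in WT, against 360.0, 340.2 and 401 FPKM in KO. The highest KO library was below the lowest WT library, and the KO mean was 78.0% of that in WT (log2 fold change −0.36, SE 0.14, 95% interval −0.68 to −0.04, limma unadjusted p 0.0334, adjusted p 0.219). Its matrix counterpart Mdh2 overlapped, at 745, 940.1 and 1225 FPKM in WT, against 885, 718 and 918 FPKM in KO (−0.19, and −0.003 without WT replicate 3). Aco1, the cytosolic aconitase that doubles as an iron regulatory protein, was at 45.9, 53.0 and 51.9 FPKM in WT, against 55.7, 62.8 and 54.8 FPKM in KO, without overlap (0.20, SE 0.14, limma adjusted p 0.463).

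Ogdh, the E1 enzyme of the 2-oxoglutarate dehydrogenase complex, was at 165, 197 and 213 FPKM in WT, against 176, 106 and 161 FPKM in KO (log2 fold change −0.40, SE 0.20, limma adjusted p 0.329), with KO replicate 2 the lowest; without that library the log2 fold change was −0.18. The succinyltransferase Dlst of the same complex was at 574 ± 28.5 and 556 ± 54.0 FPKM (SD, n = 3; −0.05), and Dld at 439 ± 81.3 and 386 ± 55.3 FPKM (−0.18). Succinyl-CoA synthetase pairs the shared chain Suclg1 with Sucla2, which makes the ATP-forming enzyme, or with Suclg2, which makes the GTP-forming one. Sucla2 lay at 915 to 1047 FPKM in WT and 914 to 1112 FPKM in KO, and Suclg2 at 29.4 to 38.0 and 31.7 to 35.5 FPKM. Their ratio was the steadiest of those formed: Suclg2 stood at 0.0322 to 0.0363 of Sucla2 in WT and at 0.0319 to 0.0355 in KO (difference of the mean log2 ratio 0.01, exact two-sided permutation test p 1, adjusted p 1). Suclg1 was at 565 ± 116 and 504 ± 80.4 FPKM (−0.16, and −0.02 without WT replicate 3), and fumarase, Fh1, at 307 ± 30.9 and 307 ± 17.7 FPKM (0.002).

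Pyruvate carboxylase, Pcx, which refills oxaloacetate, was at 98.1, 127 and 151 FPKM in WT, against 157, 98.2 and 145 FPKM in KO (log2 fold change 0.09, 95% interval −0.41 to 0.58). Pck1, the cytosolic PEP carboxykinase that brown and white fat use to make glyceride-glycerol, was at 565, 285 and 414 FPKM in WT, against 507, 390.5 and 539 FPKM in KO (0.23, 95% interval −0.33 to 0.78). WT replicate 1 was the highest library for Pck1 and WT replicate 2 the lowest, so the WT libraries spanned the KO values. The ratio of Pck1 to Pcx ran from 2.25 to 5.76 in WT and from 3.22 to 3.97 in KO (difference of the mean log2 ratio 0.14, exact two-sided permutation test p 0.9, adjusted p 1).

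The branched-chain genes held 0 of 9 at an unadjusted p under 0.05 and 0 of 9 without overlap, beside 19.2% and 24.9% of all tested genes. Bcat2, the mitochondrial transaminase, was at 32.0, 51.0 and 55.4 FPKM in WT, against 35.1, 37.9 and 32.9 FPKM in KO (log2 fold change −0.34, SE 0.21, limma adjusted p 0.405): WT replicates 2 and 3 lay above the KO libraries and WT replicate 1 below them, and the fold change was −0.58 without WT replicate 1 and −0.19 without WT replicate 3. The subunits of the branched-chain dehydrogenase were at 116 ± 35.5 and 127 ± 15.9 FPKM (SD, n = 3) for Bckdha, 204 ± 37.0 and 198 ± 7.73 FPKM for Bckdhb and 53.0 ± 13.8 and 51.0 ± 5.24 FPKM for the core protein Dbt, in WT and KO in turn. For all 3 the WT libraries spread more widely than the KO libraries. The kinase Bckdk was at 36.9, 48.8 and 59.5 FPKM in WT, against 46.9, 38.0 and 32.3 FPKM in KO (−0.29, SE 0.21, limma adjusted p 0.477). The phosphatase Ppm1k was at 7.39, 5.51 and 4.58 FPKM in WT, against 6.89, 4.04 and 8.44 FPKM in KO (0.10, SE 0.25). Their ratio ran from 4.99 to 13.0 in WT and from 3.83 to 9.41 in KO (difference of the mean log2 ratio −0.41, exact two-sided permutation test p 0.5, adjusted p 1). Leaving out 1 library moved that difference between −0.78 (WT replicate 1 left out) and −0.055 (KO replicate 3 left out). Of the 6 ratios tested on the regulators and isoforms, 0 had an exact p under 0.05, which 3 against 3 cannot give, since the smallest p is 0.1.

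Isovaleryl-CoA dehydrogenase, Ivd, of the leucine branch was among the steadiest of the 39, at 26.0, 27.6 and 28.0 FPKM in WT, against 25.3, 25.2 and 27.0 FPKM in KO (log2 fold change −0.07, 95% interval −0.36 to 0.22). Propionyl-CoA carboxylase, which takes the carbon of isoleucine and valine towards succinyl-CoA, had Pcca at 49.0 ± 4.55 and 48.3 ± 6.79 FPKM and Pccb at 204 ± 16.2 and 218 ± 9.86 FPKM (SD, n = 3).

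Over the libraries, the 39 genes together made up 2.39% to 2.53% of the FPKM sum of each library except KO replicate 2, where they made up 2.09%. KO replicate 2 was the lowest library for 16 of the 39 and WT replicate 3 the highest for 16. The mean deviation of the 39 genes from their own means was −0.15 in KO replicate 2 and 0.09 in WT replicate 3 on the log2(FPKM + 1) scale, and between 0.001 and 0.04 in the other 4 libraries. These are the libraries with the high fibroblast and matrix sum and the high erythroid sum given above. Without KO replicate 2, 0 of the 39 genes were called and 1 had an unadjusted p under 0.05, and without WT replicate 3 the numbers were 0 and 2.

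Among 54 other genes of these pathways that the table lists, 53 were tested and 2 were called, both lower in KO, beside 2.21% of all tested genes. Of the 53, 32 fold changes lay below 0 and 21 above, with a median of −0.05, and the groups did not overlap in 17% of them, beside 24.9% of all tested genes. Lipt1, a lipoyltransferase that puts the lipoyl cofactor on Dlat, Dlst and Dbt, was at 10.8, 16.99 and 12.1 FPKM in WT, against 6.97, 4.85 and 5.43 FPKM in KO. The KO mean was 43.3% of that in WT, and the groups did not overlap (log2 fold change −1.07, SE 0.20, limma adjusted p 0.0391). Lipt1 missed the threshold in 8 of 19 alternatives, among them without WT replicate 2 (limma, adjusted p 0.14), WT replicate 3 (0.108), KO replicate 1 (0.0557), KO replicate 2 (0.101) or KO replicate 3 (0.105). Its annotated exons overlap those of Mitd1 on the opposite strand, and the strand of the counting is not given in the sources used here; Mitd1 was at 7.41 ± 0.773 FPKM in WT and 8.65 ± 1.48 FPKM in KO (SD, n = 3). Got1, the cytosolic aspartate aminotransferase that works with Mdh1 in the malate-aspartate shuttle, was at 10.8, 13.8 and 13.7 FPKM in WT, against 4.89, 5.13 and 7.82 FPKM in KO. It stood at 46.5% of the WT mean (−1.01, SE 0.19, limma adjusted p 0.0406) and missed the threshold in 5 of 19 alternatives: without the filter on low values, and without WT replicate 2 (limma, adjusted p 0.173), WT replicate 3 (0.136), KO replicate 1 (0.112) or KO replicate 2 (0.107). The mitochondrial Got2 overlapped, at 21.2 to 27.8 FPKM in WT and 19.3 to 23.8 FPKM in KO.

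Of 11 tested genes for succinate dehydrogenase, its assembly and other steps of the cycle, 0 were called and 1 had an unadjusted p under 0.05. The shares of all tested genes were 2.21% and 19.2%. The groups did not overlap in 36.4% of the 11 (3 lower in KO, 1 higher), beside 24.9% of all tested genes. The assembly factor Sdhaf1 was at 54.4, 80.2 and 77.0 FPKM in WT, against 52.7, 50.2 and 30.4 FPKM in KO (log2 fold change −0.67, SE 0.24, limma adjusted p 0.174). Sdhaf2 was at 17.1 to 17.6 FPKM in WT and 13.2 to 15.3 FPKM in KO (−0.30, limma adjusted p 0.263), while the catalytic chain Sdha was at 579 ± 24.8 and 574 ± 62.7 FPKM (SD, n = 3). Sdhd and Dhtkd1 are named only because their groups did not overlap either. The subunit Sdhd was at 468, 500 and 524 FPKM in WT, against 463, 434 and 382 FPKM in KO (−0.22, limma adjusted p 0.411). Dhtkd1, the 1 that was higher in KO, was at 1.27, 1.25 and 1.19 FPKM in WT, against 1.29, 1.80 and 2.22 FPKM in KO (0.295, limma adjusted p 0.366). Of 18 further branched-chain and propionate genes, 0 were called and 1 had an unadjusted p under 0.05, beside 2.21% and 19.2% of all tested genes. This was Aldh6a1, of the valine branch, at 202, 158 and 142 FPKM in WT, against 221, 221.8 and 220.1 FPKM in KO (0.41, SE 0.16, limma adjusted p 0.202). Hsd17b10, X-linked and acting in isoleucine breakdown, was at 198 ± 32.7 and 244 ± 23.8 FPKM (0.31, limma adjusted p 0.328). Glul, glutamine synthetase, was chosen after its values were seen: it was at 208, 273 and 264 FPKM in WT, against 520.4, 318 and 821 FPKM in KO, without overlap (1.06, SE 0.30, limma adjusted p 0.107).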

How the data were processed

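RNA of the whole depot was measured in 3 WT and 3 KO libraries, grouped and numbered by title. The authors deposited FPKM values per Entrez gene, per the file headers, rounded to 2 decimals. The submitters' processing notes name HISAT2 2.0.4, Bowtie2 2.2.5, DESeq2 and mm10, without roles. The counting tool, strand setting and filters are not given in the sources used here, and FPKM are not counts, so no count model was fitted.

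KO was compared with WT in limma 3.58.1 (R 4.3.3; eBayes with trend) on log2(FPKM + 1), a scale that understates changes of low genes, for genes whose mean reached 0.5 FPKM and with p-values adjusted over all 13331. Nothing states that libraries are separate animals, so p-values measure the spread between libraries. Ratios were tested by exact two-sided permutation, and 6 were adjusted together. On simulated data the fit called 194 of 200 genes changed by 1.5 on the log2 scale and 15 unchanged ones, which says nothing of changes as small as those of the 39 genes. The 39 genes, the pathway and marker lists and the naming rule (all 39, then called genes, or otherwise the 2 with the smallest p, of each pathway list) were chosen with earlier results of these data known. Read depth was estimated from the steps of low FPKM in transcripts of known length, where 75.9% to 80.4% of values lay within 0.2 of a whole read, against 41.4% to 45.3% with lengths shuffled; multiples of that depth were not searched. Promoters are from RefSeq (GRCm38.p6), exon overlaps from GENCODE vM21: exons of Idh3b, Pdha1, Mpc1 and Bcat2, and of Lipt1, Sdhaf1, Sdhaf2, Aldh6a1 and Glul, overlap a gene on the other strand, and reads of the pair may be mixed. Same-numbered WT and KO libraries correlated at 0.068, 0.043 and 0.043 in their deviations, so the numbers were not taken as pairs. Figures were drawn with matplotlib 3.10.9.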

Additional observations from a re-analysis of the deposited data

How the results depend on the processing

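None of the 39 genes was called in 18 of 19 alternatives, among them the minimum log2 fold change of 1, which by its construction could add no call. Array weights called 5, Mdh1 (−0.47), Pdhx (−0.40) and Bcat2 (−0.50) lower and Pdk2 (0.41) and Pck1 (0.68) higher, where WT replicate 2 was weighted at 6.70 and each other library at 0.37 to 1.67, by an estimation that stopped before converging. Over all genes the 295 calls became 35 without the filter, 191 with a common sum, 3181 under array weights, 167 under the replicate block, 158 given a minimum log2 fold change of 1 by its construction, and 31 to 370 without 1 library (31 without WT replicate 3, 39 without WT replicate 2, 121, 89 and 87 without KO replicates 1, 2 and 3). In the replicate block fit 0 of the 39 were called and 1 had an unadjusted p under 0.05. Without 1 library 1 to 5 of the 39 had one. The split of the 39 into 25 lower and 14 higher was 20 and 19 with a common sum and 26 and 13 with median-of-ratios scaling, while the median over all tested genes stayed between −0.01 and 0.04 under each scaling.

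Of 736 values of the 39 genes under alternatives, 675 kept direction and call, and 19 genes never changed sign. Part of this was fixed in advance. The filters, the eBayes settings, the replicate block, the fit without X and Y genes and the minimum fold change leave each fold change as it was. Only array weights, scaling, normalization, the pseudocount or leaving out 1 library could turn a sign. Without 1 library the ranges were −0.211 to 0.062 for Idh1, −0.168 to 0.059 for Idh2, −0.072 to 0.245 for Idh3g, −0.094 to 0.033 for Dlst, −0.117 to 0.025 for Sucla2, −0.103 to 0.077 for Suclg2, −0.054 to 0.081 for Fh1, −0.148 to 0.063 for Pdha1, −0.016 to 0.155 for Pdk1, −0.08 to 0.132 for Pdk3, −0.296 to 0.674 for Pdk4, −0.192 to 0.159 for Pdp1, −0.236 to 0.395 for Pdp2, −0.078 to 0.291 for Pcx, −0.028 to 0.464 for Pck1, −0.038 to 0.388 for Bckdha, −0.187 to 0.065 for Bckdhb, −0.216 to 0.157 for Dbt, −0.094 to 0.359 for Ppm1k and −0.103 to 0.091 for Pcca. Without a change of sign, they were −0.541 to −0.18 for Ogdh, −0.361 to −0.003 for Mdh2, −0.325 to −0.023 for Suclg1, −0.314 to −0.045 for Dld, −0.317 to −0.118 for Dlat, −0.288 to −0.109 for Mpc1, −0.444 to −0.136 for Mpc2, −0.579 to −0.193 for Bcat2, −0.47 to −0.132 for Bckdk and 0.209 to 0.496 for Pdk2. Array weights turned Dlst (0.012), Suclg2 (0.014), Pdha1 (0.052), Pdk3 (−0.113), Pdp1 (0.03) and Pcca (0.002). Quantile normalization turned Suclg2 (0.006), Pdk3 (−0.006), Bckdhb (0.042), Dbt (0.013) and Pcca (0.023), a common sum turned Sucla2 (0.005), Suclg2 (0.017), Bckdhb (2.4e-05), Dbt (0.00083) and Pcca (0.003), and median-of-ratios scaling turned Fh1 (−0.023). Among the ratios, leaving out 1 library gave −0.55 to 0.422 for Pdk4 to the other kinases, −0.019 to 0.068 for Suclg2 to Sucla2, −0.221 to 0.133 for Idh1 to Idh2, −0.135 to 0.543 for Pck1 to Pcx, 0.017 to 0.567 for kinases to phosphatases and −0.777 to −0.055 for Bckdk to Ppm1k. Besides the fits without 1 library, Lipt1 missed the threshold without the filter (limma, adjusted p 0.0979), with a common sum (0.0501) and with the replicate block (0.0627), Got1 without the filter (0.103) and Fstl1 without the filter (0.0606). The cause was not tested. X-linked genes have no value in the fit without X and Y genes, nor Pdk3 and Pdp1 with the filter at 5 FPKM. At the estimated depth counting error is small for most of the 39 and larger for Pdk3, Pdp1 and Ppm1k.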

Other observations

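Several of the 39 genes shared the same 3 highest libraries, in any order, in sets that cross genotype, a pattern chosen after the values were seen. For 9 of the 39 (23.1%) the 3 highest libraries were KO replicates 1 and 3 and WT replicate 3, where 3.06% of all tested genes had that set: Idh3b, Idh3g, Dlst, Fh1, Pdk2, Pcx, Bckdha, Pcca and Pccb. For 5 (12.8%, against 4.85%) they were KO replicate 1 and WT replicates 1 and 2: Dld, Sucla2, Suclg2, Pdha1 and Dlat. For another 5 (12.8%, against 6.48%) they were KO replicate 1 and WT replicates 2 and 3: Idh2, Ogdh, Suclg1, Mpc1 and Bckdk. For 4 (10.3%, against 3.92% of all tested genes) they were KO replicates 1 and 3 and WT replicate 1: Pdp2, Ppm1k, Pck1 and Dbt. The 3 WT libraries were the highest for 4 (10.3%, against 11.6%), and the 3 KO libraries for 1 (2.56%, against 13.6%). Genes in these groups share their libraries and are not independent.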
